A study of Mus musculus with 24 samples.

Results

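Epithelial cells recovered from mouse lung organoids that had grown for 7 days with 30000 nylon fibers per well were compared with epithelial cells from wells with 12000 fibers. The comparison uses 8 of the 24 libraries of the study, 4 at each fiber number. They were chosen by their sample labels and not by any measured value. The 4 unexposed epithelial libraries are given as the reference level and entered the same statistical fit, and the 12 fibroblast libraries were not used.

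A lung organoid is a small three-dimensional culture in which epithelial progenitors, kept alive by fibroblasts around them, form airway-like and alveolus-like structures. Each well of a 6-well plate held 200000 EpCAM-positive primary cells from wild-type female C57BL6 mice and 200000 cells of the mouse fibroblast line CCL206, embedded in Matrigel, an extract of basement membrane. Fibers of nylon 6,6, a textile polyamide, measured 12 by 31 micrometers and were mixed into the gel with the cells, and control wells received none. The cells came from 4 mice in 4 independent isolations, and mouse 1 to 4 appears in each group. After 7 days the cultures were digested and the cells that bound beads against EpCAM were taken as the epithelial fraction. The sort enriches epithelial cells and does not exclude fibroblasts, and in bulk RNA fewer cells of a type and less RNA per cell cannot be told apart.

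The lung epithelium is a sheet held together by tight junctions, adherens junctions and desmosomes, and anchored by integrins to a basement membrane of laminins and type IV collagen. Basal, club, goblet and ciliated cells line the airway, and alveolar type 1 and type 2 cells line the gas exchange surface. Fibroblasts beside them supply growth factors and chemokines and carry a Hox code that records their position in the body.

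The epithelial label was checked against 5 epithelial markers (Epcam, Cdh1, Krt8, Krt18 and Cldn7). Their summed level was 4001 to 4597 counts per 1000000 (CPM, here counts scaled to the library's effective total) in controls, 4282 to 4930 CPM at 12000 fibers and 2676 to 3102 CPM at 30000 fibers. Of 8 fibroblast markers 7 were tested, and they summed to 365 to 1049 CPM in controls, 1273 to 1511 CPM at 12000 fibers and 2012 to 2708 CPM at 30000 fibers. Immune cell markers (Ptprc, Cd3e, Adgre1 and Tyrobp) had no listed transcript. Of a wider list of 18 immune cell genes 4 were tested. They summed to 80.7 to 130 CPM in controls, 43.0 to 53.4 CPM at 12000 fibers and 39.9 to 65.0 CPM at 30000 fibers. The 2 endothelial markers tested, Pecam1 and Kdr, summed to at most 4.02 CPM in any library. RNA of fibroblast genes was thus present in every library, at the highest level with 30000 fibers, and this sum moved with fiber number beside every result given here.

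The libraries also differed as libraries. All 4 at 30000 fibers were shallower, with 6767842 to 9234052 summed transcript counts against 20103389 to 31119155 at 12000 fibers and 21222034 to 28232472 in controls. Transcripts of the mitochondrial genome took 15.6% ± 0.885 (SD, n = 4) of the counts over the chosen transcripts (1 per gene) at 30000 fibers, 6.08% ± 0.725 (n = 4) at 12000 fibers and 6.44% ± 1.12 (n = 4) in controls. Ribosomal protein genes took 4.41% ± 0.200 (n = 4), 0.960% ± 0.0258 (n = 4) and 0.891% ± 0.0677 (n = 4) of these counts in the same order. Over all listed transcripts, where nuclear genes count with every isoform, the mitochondrial share was 6.38%, 2.08% and 2.22% and the ribosomal protein share 5.13%, 1.06% and 1.00%, again in that order. A 3′ shift was read from 3408 pairs of isoforms that do not overlap, as the log2 ratio of the 3′ isoform to the 5′ isoform relative to controls. It was 0.43 ± 0.06 (n = 4) at 30000 fibers and -0.10 ± 0.02 (n = 4) at 12000 fibers. The length of the counted transcripts, weighted by counts, averaged 3917 bases at 30000 fibers, 4742 at 12000 fibers and 4722 in controls. None of these measures overlapped between the fiber groups, and each gave an exact two-sided permutation p of 0.0286, the smallest that 4 against 4 allows. Fiber number and these library properties cannot be told apart in this design.

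**Figure D1:**
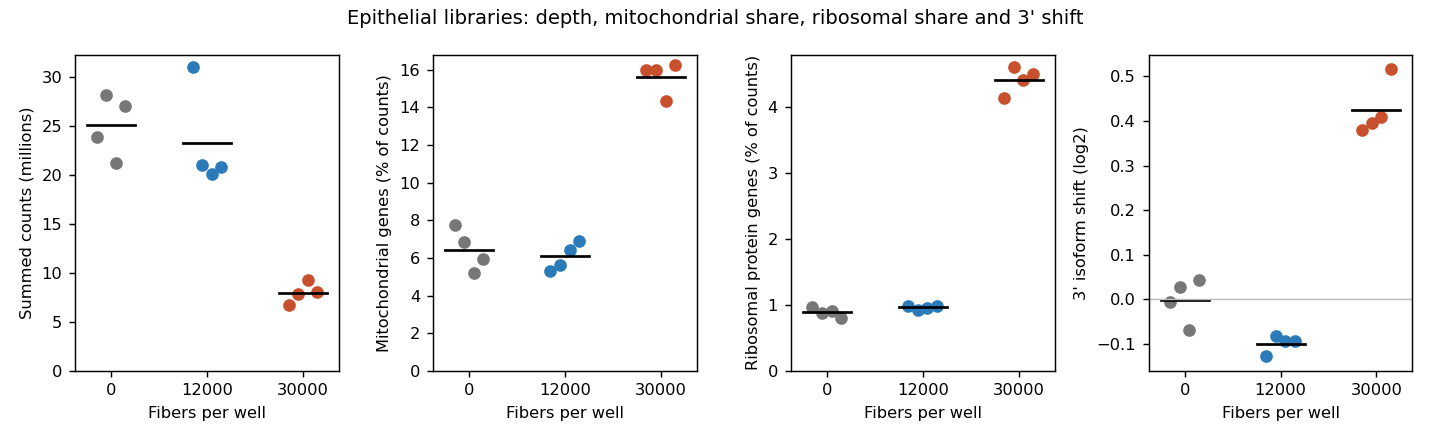
Each point is 1 epithelial library and each bar the mean of 4, for summed counts, the percent of counts from mitochondrial and from ribosomal protein genes, and the 3′ isoform shift in log2 units, against fibers per well. The 4 libraries at 30000 fibers lie apart from the other 8 in all panels, while 12000 fibers and controls overlap in the first 3.

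A majority of genes differed between the fiber numbers. Of 13759 genes tested, 3893 (28.3%) were higher and 3728 (27.1%) lower at 30000 fibers, 55.4% in all, at an adjusted p under 0.05 in edgeR's quasi-likelihood test. Among the called genes 1414 rose and 562 fell by over 2-fold, and 330 rose and 74 fell by over 4-fold. The median log2 change over all genes was -0.01. These shares are the background for every gene group: a group in which about 28.3% of members rose and 27.1% fell is like all genes.

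The direction differed with transcript length. In the shortest of 5 length classes (57 to 1803 bases, 2736 genes) 54.1% of genes rose and 11.3% fell, with a median log2 change of 0.51. In the longest class (5152 bases and over, 2734 genes) 15.4% rose and 43.1% fell, with a median of -0.20. Over 13669 genes, no gene being a replicate of another, the log2 change had a Pearson r of -0.33 with log2 length. A second fit carried a smooth offset per library for transcript length and GC content, which left class medians between 0.05 and -0.07. It called 6956 of 13669 genes (50.9%, with 26.2% higher and 24.7% lower). Of these, 5813 were called in the same direction in both fits and 84 in the opposite direction. Where the median of a gene group is given, it is from the first fit, with the value under these offsets beside it. Some groups are given by counts only.

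**Figure D2:**
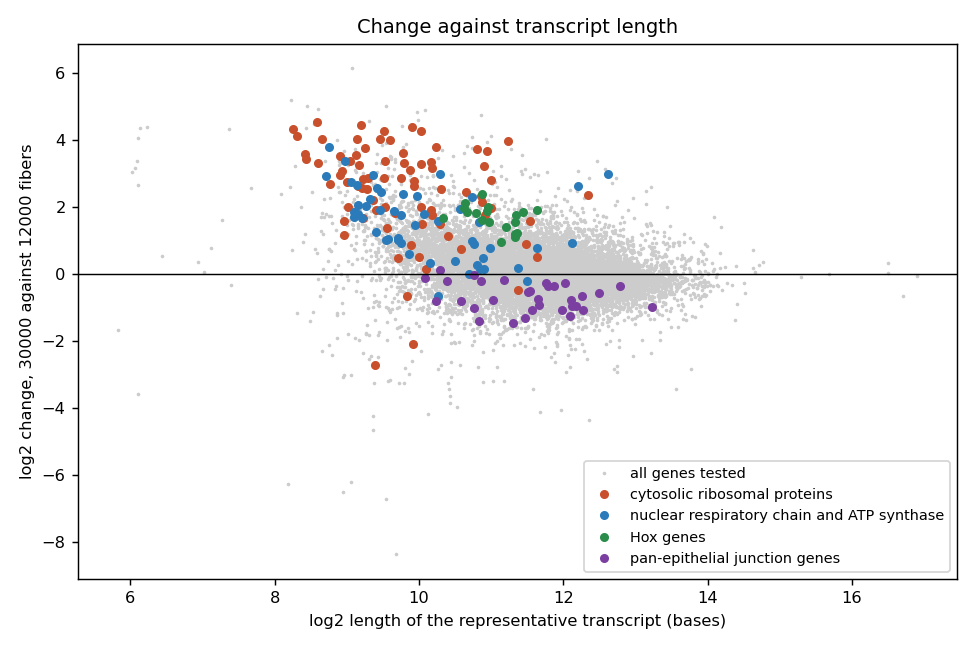
Each dot is a gene tested, placed by the log2 length of its representative transcript in bases and by its log2 change at 30000 against 12000 fibers. Ribosomal protein and respiratory chain genes sit at the short end and mostly above 0, Hox genes are of middling length and all above 0, and junction genes span the range and lie mostly below 0.

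Genes that hold the epithelial sheet together were lower at 30000 fibers. Of 32 tested genes of epithelial junctions and their regulators, 23 fell and 0 rose, where over all genes 27.1% fell and 28.3% rose. Their median log2 change was -0.76 (-0.64 with length and GC offsets, where 24 fell). All 4 libraries at 30000 fibers lay below all 4 at 12000 fibers for 24 of the 32 genes, against 25.6% of all genes. The gene with the smallest p was F11r (ENSMUST00000043839, chr1:171437535-171464603, build GRCm38), which encodes the tight junction protein JAM-A. F11r stood at 273, 271, 241 and 274 CPM in the controls of mouse 1 to 4, at 266, 275, 256 and 258 CPM with 12000 fibers and at 82.7, 96.7, 93.3 and 108 CPM with 30000 fibers. The control and 12000 groups overlapped and the 30000 group lay apart below them, a log2 change of -1.47 ± 0.08 (SE; adjusted p = 2.20e-12), or 2.77-fold lower.

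Epcam (ENSMUST00000234623, chr17:87636682-87651129), the surface protein used for the sort, fell stepwise. Its level was 743, 644, 604 and 609.5 CPM in controls, 468, 474, 497 and 495 CPM at 12000 fibers and 262, 185, 249 and 261 CPM at 30000 fibers. The 3 groups did not overlap, and the step from 12000 to 30000 fibers was -1.01 ± 0.09 on the log2 scale (adjusted p = 3.07e-08). All 5 listed transcripts of Epcam had a lower mean at 30000 fibers. Cdh1, which encodes E-cadherin of adherens junctions, had like levels in controls and at 12000 fibers (1422 ± 99.1 and 1522 ± 86.8 CPM, SD, n = 4) and 894 ± 67.5 CPM at 30000 fibers, a change of -0.77 ± 0.07. Cldn4, a tight junction claudin, took another course, from 787 CPM in controls up to 1266 CPM and then down to 482 CPM.

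Other members fell by like amounts. Occludin (Ocln) changed by -1.08 ± 0.09, the adaptor Tjp3 by -1.08 ± 0.14, P-cadherin (Cdh3) by -1.27 ± 0.19, and the desmosome proteins Dsp and Pkp3 by -0.98 ± 0.08 and -1.31 ± 0.14. Among transcription factors that maintain epithelial identity, Grhl2 changed by -1.08 ± 0.10, Ehf by -0.95 ± 0.15 and Elf3 by -0.78 ± 0.15. The membrane protease St14 (matriptase), which acts in barrier formation, changed by -0.93 ± 0.07. Claudins were not uniform. Cldn7 was at -0.22, a call lost in 5 of the alternative settings, and Cldn3 at 0.13 ± 0.06 (adjusted p = 0.0668), with called rises of 0.27 and 0.20 when transcripts were summed or the longest transcript was taken. Of the 23 genes that fell, 17 had a 12000 group already below the controls and 6 had one above.

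Keratins of simple epithelium, the filament proteins of the lung surface, were lower as well. Krt7 was the furthest from its level at 12000 fibers. It was read at 1451, 1557, 1474 and 1455 CPM with 12000 fibers and 476, 514, 551 and 547 CPM with 30000 fibers, against 2333, 2256, 1864 and 1954 CPM in controls, so the groups were apart at each step (-1.51 ± 0.08, adjusted p = 3.59e-12). Krt19 changed by -0.96 ± 0.08. Krt8 and Krt18, which pair with each other, changed by -0.53 ± 0.09 and -0.65 ± 0.08 and had been a little higher at 12000 fibers than in controls.

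Genes for adhesion to the basement membrane changed mostly in the same direction. Of 14 integrin genes 8 fell and 1 rose (median -0.62, -0.55 with offsets). Itga3, the integrin chain that binds laminin, was at 1126, 1192, 1089 and 1005 CPM in controls, 961, 940.5, 980.0 and 907 CPM at 12000 fibers and 363, 364, 461 and 447 CPM at 30000 fibers. The large step lay between the fiber numbers (-1.21 ± 0.08, adjusted p = 1.92e-10), with the 30000 group apart from the other 2. Itgb4, its hemidesmosome counterpart, fell at both steps, with means of 804, 242 and 104 CPM and a change of -1.22 ± 0.13. Itgb1, the common partner of many chains, changed by -0.82 ± 0.07. The riser was Itga8, a chain known from fibroblasts and smooth muscle (1.18 ± 0.26).

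Of 21 collagen, laminin and nidogen genes of the basement membrane, 14 fell and 3 rose (median -0.80, -0.54 with offsets, where 12 fell and 6 rose). Lama3 and Lamb3, chains of the laminin that anchors epithelium, changed by -0.97 ± 0.08 and -1.28 ± 0.08 on the log2 scale. Lama5, the main laminin alpha chain of mature lung epithelium, stood at 1784, 1803, 1819 and 1895 CPM at 12000 fibers and 789, 751, 834 and 985 CPM at 30000 fibers. These groups did not overlap (-1.12 ± 0.08, adjusted p = 3.74e-10). Type IV collagen chains had been higher at 12000 fibers than in controls and came down. Col4a1 was at 952, 1610, 1804 and 1480 CPM in controls, 3041, 3307, 2672 and 2494 CPM at 12000 fibers and 1521, 1543, 1460 and 1467 CPM at 30000 fibers. The 30000 group thus lay within the range of the controls and below the 12000 group (-0.94 ± 0.16, adjusted p = 2.08e-04). Col4a2, its partner in the same trimer, changed by -0.94 ± 0.15, Col4a3 by -1.22 ± 0.11 and Col4a4 by -1.12 ± 0.10. The 3 risers were Lama2 (0.93 ± 0.26), Nid1 (1.16 ± 0.25) and Nid2 (1.29 ± 0.27), which mesenchymal cells also make. The fibroblast marker sum rose beside them, and its part in these rises was not tested.

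**Figure D3:**
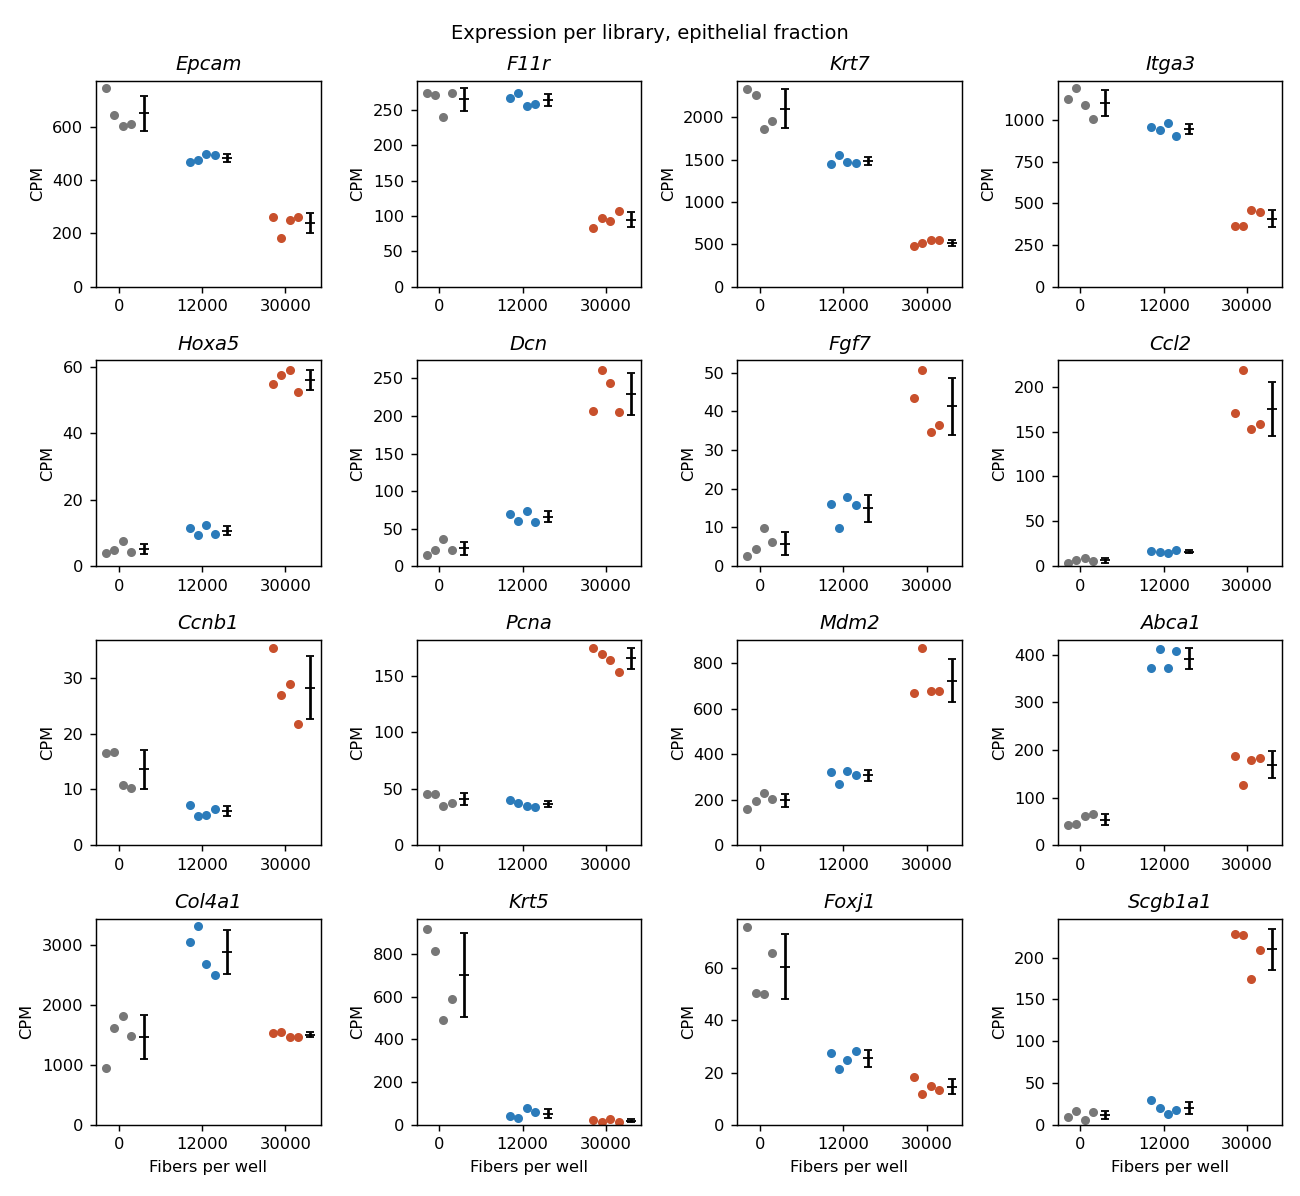
CPM of 16 genes in each epithelial library at 0, 12000 and 30000 fibers per well, with the mean and SD of 4 libraries beside the points. Epcam, F11r, Krt7 and Itga3 are lowest at 30000 fibers, Hoxa5, Dcn, Fgf7 and Ccl2 highest, Abca1 and Col4a1 peak at 12000 fibers, and Ccnb1 is lowest there.

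Airway and alveolar lineages did not move as one. Of 18 basal cell genes 11 fell and 0 rose (median -1.19, -0.95 with offsets), and 5 of those 11 also stand in the integrin, junction or laminin lists. Basal cells are the stem cells of the airway. In 9 of the 11 the 12000 group was already below the controls. Krt5, the basal cell keratin, was at 917, 812, 490.0 and 589.7 CPM in controls, 41.3, 31.8, 76.7 and 60.4 CPM at 12000 fibers and 21.2, 13.4, 27.7 and 11.02 CPM at 30000 fibers. The 2 fiber groups did not overlap (-1.50 ± 0.42, adjusted p = 0.0121). Krt14 changed by -1.67 ± 0.56 (adjusted p = 0.0292, and 0.0845 with mouse as a replicate block). Its call was also lost without 12000 mouse 3 (-1.47), 12000 mouse 4 (-1.52), or 30000 mouse 1 (-1.61), 2 (-1.47) or 4 (-1.58). Trp63, the master regulator of basal cells, was at -1.60 ± 0.74 (adjusted p = 0.095) and was called with DESeq2 or with transcripts summed. With mouse as a replicate block and length and GC offsets together, 7 of the 18 fell, and Krt5 (-1.41, adjusted p = 0.0577) was not called.

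Secretory cells showed 1 large rise. Scgb1a1, the club cell secretoglobin, was at 8.80, 16.5, 5.73 and 14.97 CPM in controls, 29.2, 20.1, 12.7 and 17.6 CPM at 12000 fibers and 228, 227, 175 and 209.8 CPM at 30000 fibers. The 30000 group lay far above the others, a log2 change of 3.36 ± 0.29 (adjusted p = 4.09e-06) that was 1.62 with length and GC offsets. The list did not follow it: of 22 club and secretory genes 4 rose and 3 fell, with a median of -0.09. With length and GC offsets 1 rose and 4 fell (-0.34), and the median was 0.16 without 12000 mouse 1 and 0.02 with transcripts summed. Haptoglobin (Hp) changed by -1.01 ± 0.20 and the stress-related glutathione transferase Gsta4 by 0.66 ± 0.17, or -0.18 with offsets. Scgb3a2, another secretoglobin, had means of 33.6 CPM in controls and only 0.603 and 0.975 CPM at the fiber numbers, with 22 and 11 reads, so a change between them was not detectable at this depth. Mucins Muc5ac and Muc5b were likewise near the floor in both fiber groups (25 and 8 reads for Muc5b). Muc4, a membrane mucin, was at 204, 172, 229 and 244 CPM with 12000 fibers and 431, 241, 447 and 379 CPM with 30000 fibers, with an overlap of 1 library in each group (0.82 ± 0.25), against 1622, 830.5, 996 and 1151 CPM in controls.

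Foxj1, the master regulator of motile cilia, went from 75.7, 50.6, 50.2 and 65.97 CPM in controls to 27.4, 21.3, 24.8 and 28.1 CPM at 12000 fibers and 18.4, 11.99, 14.7 and 13.4 CPM at 30000 fibers. The groups did not overlap (-0.81 ± 0.18, adjusted p = 0.00119), but with length and GC offsets the change was -0.47 and not called (adjusted p = 0.0627). Of 33 ciliated cell genes 8 rose (24%, against 28.3% of all genes) and 3 fell (9.1%, against 27.1%). Their median was 0.23 (0.28 with offsets). It turned to -0.03 when the 8 fiber libraries were fitted alone and to -0.06 with libraries thinned to 1 depth. The count of rises was 4 without 30000 mouse 1. The tubulin Tuba1a, which is not particular to cilia, had the smallest p of the risers (2.03 ± 0.13). The dynein chain Dynlrb2 rose on 19 and 47 reads.

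Alveolar type 1 cell genes mostly fell, 11 of 20 against 2 that rose (median -0.45, -0.39 with offsets). Col4a3, Col4a4 and Agrn of that list are also basement membrane genes. Ager, the classic type 1 marker, was at 213, 278, 172 and 204 CPM with 12000 fibers and 119, 124, 92.7 and 121 CPM with 30000 fibers. These groups did not overlap (-0.93 ± 0.23, adjusted p = 0.00678). Of the 11 that fell, 9 had been above the controls at 12000 fibers. Aqp5 changed by -0.43 ± 0.11, not called with offsets, and Cav1 rose by 0.43 ± 0.08, not called with transcripts summed (0.12, adjusted p = 0.192).

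Among 24 alveolar type 2 genes 2 rose and 4 fell (median -0.07, -0.15 with offsets, where 2 rose and 2 fell). The balance turned without 12000 mouse 2 (4 rose, 2 fell, median 0.02) and with transcripts summed (6 rose, 5 fell). The falls numbered 2 without 12000 mouse 1 or 30000 mouse 2, 3 or 4, and 6 without 12000 mouse 3 or 30000 mouse 1. Surfactant protein C (Sftpc), the defining type 2 product, was at 3059, 3815, 2032 and 2361 CPM with 12000 fibers and 3994, 4204, 2802 and 3394 CPM with 30000 fibers. The ranges overlapped and the change of 0.35 ± 0.29 was not called (adjusted p = 0.321), whereas it was 1.02 (adjusted p = 0.00569) with the gene's transcripts summed and -0.62 (adjusted p = 0.0936) with length and GC offsets. Sftpa1 rose by 1.63 ± 0.39 and the chemokine Cxcl15 by 1.38 ± 0.32. The factor Nkx2-1, which marks lung identity in all epithelial lineages, changed by -0.50 ± 0.10, and Cebpa by -1.60 ± 0.20 from 79.7 ± 17.1 to 26.5 ± 3.98 CPM (SD, n = 4). Of 23 lineage transcription factors 8 fell (35%, against 27.1% of all genes) and 2 rose (8.7%, against 28.3%), with a median of -0.19 (-0.13 with offsets).

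Ion transport genes, which set the fluid on the epithelial surface, fell where they were called in the first fit. Of 17 genes 9 fell and 0 rose (median -0.45, -0.37 with offsets, where 8 fell and 1 rose). The chloride cotransporter Slc12a2 was at 627, 601, 496 and 539 CPM in controls, 357, 344, 362 and 358 CPM at 12000 fibers and 247, 161, 216 and 191 CPM at 30000 fibers (-0.80 ± 0.10, adjusted p = 3.80e-06). The 3 groups did not overlap. The water channel Aqp4 went from 765 CPM in controls to 28.04 and then 9.30 CPM (-1.57 ± 0.47), a call lost without 30000 mouse 2 (-1.29, adjusted p = 0.0506).

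**Figure D4:**
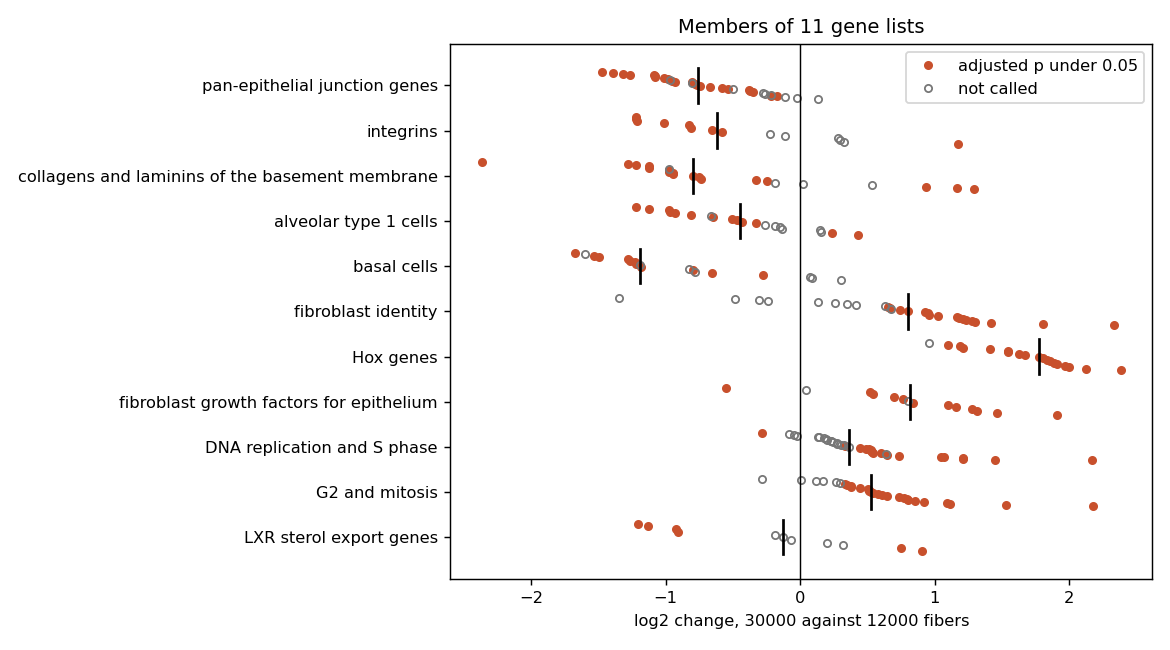
Log2 change at 30000 against 12000 fibers of every tested member of 11 gene lists, filled where the adjusted p is under 0.05, with a bar at each list's median. Junction, integrin, alveolar type 1 and basal genes lie mostly left of 0, and Hox, fibroblast and cell cycle genes mostly right, while the sterol export list splits.

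Genes of fibroblasts were higher in the epithelial fraction at 30000 fibers. Of 27 fibroblast identity genes 17 rose and 0 fell (median 0.80, 1.01 with offsets, where 20 rose). Some members were called lower elsewhere, 4 when the 8 fiber libraries were fitted alone, 2 with DESeq2, 2 with the longest transcript, and 1 each with mouse as a replicate block (16 rose), with upper quartile scaling and without 30000 mouse 3. All 17 that rose were above the controls at 12000 fibers too. Decorin (Dcn), a matrix proteoglycan of fibroblasts, was at 15.1, 21.2, 36.2 and 21.8 CPM in controls, 70.03, 60.8, 73.3 and 58.4 CPM at 12000 fibers and 207, 262, 244 and 206 CPM at 30000 fibers. Each group lay above the one before (1.81 ± 0.20, adjusted p = 1.56e-05). Twist1 (2.33 ± 0.22) and Zeb1 (1.16 ± 0.20), transcription factors of mesenchymal cells, rose, as did the receptor Pdgfra (0.93 ± 0.25). Vimentin (Vim), the mesenchymal filament protein, rose by 1.18 ± 0.28, but its longest transcript stood at -0.05.

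The structural collagens rose less than these. Col1a1 was at 592, 510.3, 528 and 487 CPM with 12000 fibers and 852, 1034, 924 and 732 CPM with 30000 fibers. The groups did not overlap (0.74 ± 0.23, adjusted p = 0.0215), though the call was lost without 12000 mouse 4 (0.70, adjusted p = 0.0538) or 30000 mouse 2 (0.66, adjusted p = 0.0617). Col1a2, the other chain of the same fiber, was at 0.63 ± 0.29 (adjusted p = 0.0869) and Col3a1 at 0.41 ± 0.27 (adjusted p = 0.22). Both were called when the 8 fiber libraries were fitted alone. Smooth muscle actin (Acta2) rose by 1.39 ± 0.34, while of 15 contractile genes 6 rose and 5 fell (median 0.13, 0.11 with offsets). The order of change, larger for Dcn and Twist1 than for the collagens, is a description and was not tested.

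Hox genes, which encode position along the body axis, had the third highest median of the 52 lists with at least 6 tested genes, after ribosomal proteins and the mitochondrial genome, and the second highest with offsets, after ribosomal proteins. Of 31 listed Hox genes 19 were tested, 18 rose and 0 fell (median 1.77, 1.59 with offsets, where 18 rose). Hoxa5 is a gene the study itself singled out, so its rise is no independent evidence. It was at 4.05, 4.86, 7.56 and 4.35 CPM in controls, 11.4, 9.46, 12.3 and 9.78 CPM at 12000 fibers and 54.9, 57.5, 59.2 and 52.5 CPM at 30000 fibers. The 30000 group was apart by 2.38 ± 0.14 (adjusted p = 1.27e-11), or 5.21-fold. Its neighbour Hoxa4 rose by 2.12 ± 0.23, Hoxa3 by 1.77 ± 0.15, Hoxb3 of another cluster by 1.91 ± 0.15 and Hoxc8 of yet another cluster by 1.62 ± 0.16. Neighbouring Hox genes overlap antisense transcripts, and no source used here gives the counting's strand setting, so both strands' reads may be mixed.

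Fibroblast-derived factors that act on epithelium were part of the same rise, 11 of 14 tested, against 1 that fell (median 0.82, 0.79 with offsets). Fgf7, a mitogen for alveolar and airway epithelium, was at 2.66, 4.47, 9.77 and 6.27 CPM in controls, 16.1, 9.86, 17.9 and 15.8 CPM at 12000 fibers and 43.5, 50.8, 34.7 and 36.4 CPM at 30000 fibers. The fiber groups did not overlap (1.46 ± 0.27, adjusted p = 6.49e-04). Fgf10 rose by 0.84 ± 0.27, a call lost without 30000 mouse 3 (0.74, adjusted p = 0.0514). The BMP antagonist Grem1 rose by 1.28 ± 0.30, the WNT antagonist Sfrp1 by 1.91 ± 0.16 and the chemokine Cxcl12 by 1.16 ± 0.30. The cytokine Lif changed the other way, by -0.55 ± 0.08. Fibroblast markers and these factors rose in the same 4 libraries, and how far the marker rise accounts for theirs was not tested.

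Chemokine genes held the largest single rise among immune signals. Ccl2, which recruits monocytes, was at 3.47, 7.20, 9.25 and 5.77 CPM in controls, 16.9, 15.8, 14.8 and 17.7 CPM at 12000 fibers and 171, 219, 152 and 159 CPM at 30000 fibers. Each group lay above the one before (3.42 ± 0.17, adjusted p = 1.33e-09, 10.7-fold, and 2.24 with length and GC offsets). Ccl7, its neighbour with the same receptors, rose by 2.36 ± 0.15 and Ccl9 by 1.14 ± 0.26. Of 26 chemokine and cytokine genes 11 rose and 2 fell (median 0.46), or 7 and 3 with length and GC offsets (0.24). Mif, a short transcript, was among those lost there, at 1.33 before and 0.05 after.

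Of 31 interferon response genes 11 fell (35%, near the 27.1% of all genes) and 2 rose (median -0.32, -0.38 with offsets). The signal amplifier Parp14 changed by -0.91 ± 0.08, Trim25 by -0.58 ± 0.07 and the ubiquitin-like Isg15 by -1.43 ± 0.34. Of 16 genes for MHC class I and antigen processing 8 fell and 2 rose (median -0.29, -0.29 with offsets). B2m, the shared light chain of class I, was an exception and stood at 530.1, 436, 466 and 418 CPM with 12000 fibers and 1873, 1874, 1907 and 1666 CPM with 30000 fibers. The groups were far apart (1.98 ± 0.11, 0.86 with offsets). The heavy chain H2-Q4 went the other way (-1.48 ± 0.10), and H2 genes resemble each other so closely that reads may be split among them.

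Cell cycle genes were higher at 30000 than at 12000 fibers. Of 29 genes of G2 and mitosis 23 rose and 0 fell (median 0.53, 0.53 with offsets, where 21 rose). In all 23 the 12000 group was below the controls, and in 6 of them the 30000 group exceeded the controls. These genes are known to be switched on together late in the cycle through a pair of promoter elements, a cell cycle homology region and the CCAAT box. RefSeq promoters (GRCm38.p6, 250 bases before to 50 after the start) were matched for 25 of the list, and 21 of them (84%) held TTTGAA on either strand, or the variant with a central CG, TTCGAA, against 19.2% of all 32851 promoters of that length. CCAAT on either strand stood in 21 of 25 (84%) against 37.4% of all, and both motifs in 19 of 25 (76%) against 7.52%. The motifs overlapped in 1 of the 25. The 3 genes of the list with the smallest p are shown from 150 bases before to 20 after the start, because these motifs are frequent in the promoters of this list. Capitals mark each of these motifs on either strand. The windows lie at chr13:100786467-100786636, minus strand (Ccnb1), chr10:69352893-69353062, minus strand (Cdk1) and chr2:164769779-164769948, plus strand (Ube2c).
Ccnb1: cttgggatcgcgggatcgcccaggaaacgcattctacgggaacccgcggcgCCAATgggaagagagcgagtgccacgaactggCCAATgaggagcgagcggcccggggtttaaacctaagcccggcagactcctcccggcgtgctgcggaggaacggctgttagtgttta
Cdk1: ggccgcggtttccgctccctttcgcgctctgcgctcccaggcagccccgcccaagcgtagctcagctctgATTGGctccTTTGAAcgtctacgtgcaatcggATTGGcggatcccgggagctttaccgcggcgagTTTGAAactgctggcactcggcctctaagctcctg
Ube2c: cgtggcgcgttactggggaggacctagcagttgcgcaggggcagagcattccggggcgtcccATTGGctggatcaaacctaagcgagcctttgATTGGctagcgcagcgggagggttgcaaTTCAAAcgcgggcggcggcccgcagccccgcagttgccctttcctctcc
The Ccnb1 window shows CCAAT only, and the other two show both motifs. A match is a description of the letters and no evidence of binding.

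Ccnb1, which encodes the cyclin that starts mitosis, was at 16.6, 16.7, 10.8 and 10.3 CPM in controls, 7.17, 5.33, 5.44 and 6.57 CPM at 12000 fibers and 35.3, 26.8, 28.9 and 21.7 CPM at 30000 fibers. The 30000 group lay above both others (2.17 ± 0.20, adjusted p = 2.38e-08), and all 3 transcripts that averaged at least 20 counts had a higher mean. Its kinase partner Cdk1 was at 28.4, 26.6, 25.2 and 26.5 CPM with 12000 fibers and 59.9, 61.7, 53.9 and 52.8 CPM with 30000 fibers. The groups were apart (1.09 ± 0.11, adjusted p = 9.31e-08), but only 1 of 7 such transcripts of Cdk1 was higher and the summed transcripts gave 0.22 (adjusted p = 0.127). Ube2c, an enzyme of the anaphase-promoting complex, rose by 1.53 ± 0.16, Ccna2 by 1.11 ± 0.13 and the kinase Aurka by 0.92 ± 0.15. Mki67, the usual proliferation marker, rose far less, from 183 ± 6.97 to 233 ± 24.5 CPM (0.35 ± 0.11), and stayed below the controls at 431 ± 75.7 CPM (SD, n = 4 each). Plk1 (0.27 ± 0.16, adjusted p = 0.166) and Bub1b (-0.28 ± 0.15, adjusted p = 0.108) did not pass, and Bub1b was called lower without 30000 mouse 2 (-0.38, adjusted p = 0.0491).

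Of 35 genes of DNA replication and S phase 17 rose and 1 fell (median 0.36, 0.43 with offsets, where 21 rose). Pcna, the sliding clamp of DNA polymerase, was at 45.95, 45.8, 35.2 and 37.5 CPM in controls, 39.9, 37.3, 35.00 and 34.3 CPM at 12000 fibers and 175, 169.7, 164 and 153 CPM at 30000 fibers. It stood apart from both other groups (2.17 ± 0.09, adjusted p = 5.04e-14, 1.75 with offsets). Thymidylate synthase (Tyms) rose by 1.45 ± 0.18 and the cyclin Ccne2 by 1.21 ± 0.17. The single faller was Pold1 (-0.28 ± 0.11), whose call was lost without 12000 mouse 1, 2 or 3 or 30000 mouse 1, 3 or 4 (-0.23 to -0.30) and which stood at 0.13 with offsets.

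Of 25 targets of the tumor suppressor p53, 9 were higher and 8 lower (median 0.02, -0.07 with offsets). Those shares, 36% and 32%, are near the 28.3% and 27.1% of all genes. Mdm2, the feedback inhibitor of p53, was at 162, 196, 228 and 205 CPM in controls and 322, 271, 327 and 308 CPM at 12000 fibers. At 30000 fibers it was at 669, 867, 678 and 679 CPM. The 3 groups rose without overlap (1.24 ± 0.10, adjusted p = 2.29e-08). The cell cycle inhibitor Cdkn1a rose by 0.79 ± 0.08, Ccng1 by 0.62 ± 0.10 and Fas by 0.83 ± 0.14. Fas was at 0.35 and not called (adjusted p = 0.0561) with offsets and mouse as a replicate block together. Trp53 itself was at 0.65 ± 0.07, with -0.38 for its longest transcript. The death effector Bbc3 (PUMA) went the other way, by -1.09 ± 0.12, and Perp, which is also a desmosome protein, by -0.64 ± 0.17.

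Genes that export sterols under the receptor LXR split, and 4 of 11 fell (36%, against 27.1% of all genes). Abca1, the cholesterol exporter, was at 43.8, 45.1, 62.5 and 65.4 CPM in controls, 373, 411, 372 and 408 CPM at 12000 fibers and 188, 127, 179 and 183 CPM at 30000 fibers. The 30000 group lay between the others without overlap (-1.21 ± 0.14, adjusted p = 8.52e-06). Abcg1 changed by -0.92 ± 0.23, Srebf1, the regulator of fatty acid synthesis, by -0.91 ± 0.08 and Apoe, the lipid carrier, by -1.13 ± 0.37. Apoe lost its call without 12000 mouse 2 (-1.11) or 4 (-1.09) or 30000 mouse 2 (-0.93) or 3 (-1.12). All 4 had a 12000 group above the controls, and 3 of them a 30000 group above the controls. In the whole list 2 genes rose (median -0.13), and with length and GC offsets 7 fell and 1 rose (-0.31). Apoc1, a very short transcript, changed sign between the fits (0.75 and -1.02). Against 28.3% and 27.1% of all genes, 7 (28%) of 25 cholesterol synthesis genes rose and 9 (36%) fell (median -0.04, -0.01 with offsets). Their regulator Srebf2 changed by -0.93 ± 0.07, while Fdps rose by 1.83 ± 0.11 but stood at -0.32 in its longest transcript.

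Inhibitors of differentiation, immediate targets of BMP signals, rose. Id3 was at 4.17, 5.16, 7.69 and 6.58 CPM in controls, 14.97, 9.33, 11.7 and 9.65 CPM at 12000 fibers and 65.03, 65.97, 59.8 and 65.1 CPM at 30000 fibers. The 30000 group lay far above (2.46 ± 0.15, adjusted p = 5.23e-11). Id1 rose by 1.53 ± 0.18 and Id2 by 1.10 ± 0.10. The BMP and TGF-beta feedback genes Smad6 (-0.66 ± 0.17) and Smad7 (-0.56 ± 0.08) and the matrix target Tgfbi (-0.70 ± 0.23) fell. In the whole list 7 of 21 genes rose and 6 fell. Those shares, 33% and 29%, are near the 28.3% and 27.1% of all genes. Tgfbi lost its call without 30000 mouse 2 (-0.65) or 4 (-0.66). With length and GC offsets 9 rose and 2 fell, and neither Smad6 (-0.30) nor Tgfbi (-0.63, adjusted p = 0.0517) was called. NOTCH ligands fell, Jag2 by -1.59 ± 0.25, Dll1 by -1.01 ± 0.19 and Jag1 by -0.64 ± 0.11, as did the receptors Notch1 (-0.72 ± 0.11) and Notch2 (-0.52 ± 0.06), while the target Hes1 (0.61 ± 0.09) and the nuclear partner Rbpj (0.83 ± 0.08) rose. Of 3 transcripts of Hes1 that averaged at least 20 counts, 1 had a higher and 2 a lower mean at 30000 fibers. Hey1 and Nrarp, other NOTCH targets, had 1 such transcript each, with a lower mean at 30000 fibers. Of 16 NOTCH pathway genes 6 fell (37.5%, against 27.1% of all genes) and 3 rose (19%, against 28.3%), with a median of -0.43 (-0.17 with offsets).

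Ribosomal protein and respiratory chain genes were mostly higher. Of 79 cytosolic ribosomal protein genes 74 rose and 4 fell (median 2.73, 1.64 with offsets, where 69 rose and 7 fell). Rpl36 was at 23.03, 22.8, 24.4 and 19.7 CPM in controls, 25.6, 27.7, 31.2 and 31.8 CPM at 12000 fibers and 594, 729, 653 and 721 CPM at 30000 fibers. The control and 12000 groups were close and the 30000 group 23.3-fold above (4.54 ± 0.09, 2.83 with offsets). Of 51 nuclear genes of the respiratory chain and ATP synthase 46 rose and 2 fell (median 1.68, 0.69 with offsets, where 36 rose). Cox6c, a cytochrome oxidase subunit, rose by 3.36 ± 0.08, which was 1.64 with offsets. With the longest transcript of each gene 60 ribosomal protein genes rose and 15 fell, and 37 respiratory chain genes rose and 9 fell. The 2 respiratory chain genes that fell in the first fit were subunits of complex II, Sdha (-0.23 ± 0.06) and Sdhd (-0.67 ± 0.10). Of 71 mitochondrial ribosomal protein genes 59 rose, or 38 with offsets (median 0.79 and 0.31). Proteasome subunits showed 21 rises and 5 falls among 31, and 13 and 12 with offsets, which brought their median from 0.43 to -0.01. The median transcript length was 860 bases for the ribosomal protein list and 931 for the respiratory chain list, against 3167 over all genes. Ribosomal protein genes have many processed pseudogenes, and no source used here says how reads shared with them were counted.

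**Figure D5:**
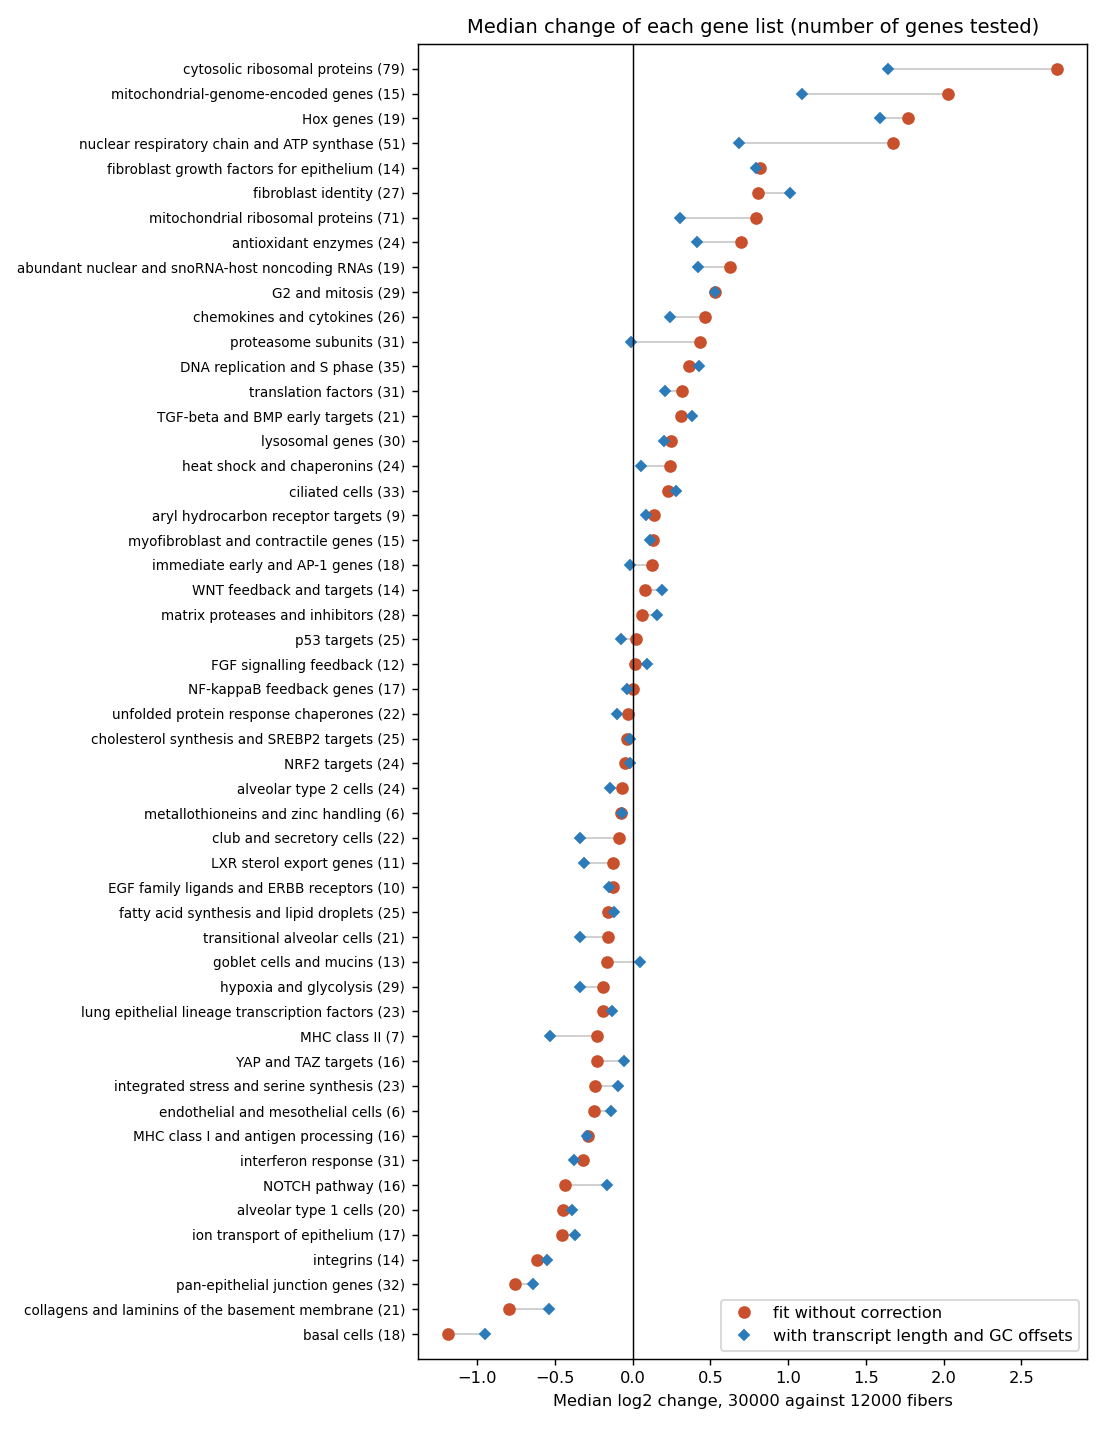
Median log2 change of 52 gene lists at 30000 against 12000 fibers, in the fit without correction (circles) and with offsets for transcript length and GC content (diamonds), with the number of tested genes in parentheses. The basal and junction lists are among the lowest in both fits, with the basement membrane and integrin lists near them, and the ribosomal, mitochondrial and proteasome lists move most between them.

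Of 15 genes of the mitochondrial genome 14 rose and 1 fell, or 12 and 1 with offsets (median 2.03 and 1.09). mt-Nd3, a complex I subunit, was at 56.7, 55.1, 28.8 and 27.3 CPM in controls, 37.2, 39.04, 46.7 and 48.2 CPM at 12000 fibers and 1326, 1466, 1311 and 1442 CPM at 30000 fibers. That is 32.5-fold (5.02 ± 0.25), or a log2 change of 2.61 with offsets. The long mt-Co1 rose by 1.03 ± 0.12 and mt-Nd4 by 2.03 ± 0.12. The faller was mt-Nd6, the one protein gene on the light strand, at 404, 356, 324 and 409 CPM in controls, 264, 291, 365 and 467 CPM at 12000 fibers and 100.3, 106, 96.3 and 99.5 CPM at 30000 fibers. All 4 libraries at 30000 fibers lay below the others (-1.79 ± 0.17, adjusted p = 1.83e-06). Reads from the opposite strand cannot be told apart where the strand setting is unknown.

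Among called genes that averaged at least 1 on the log2 CPM scale and moved alike in all 4 mice, leaving aside the mitochondrial genome, predicted genes and pseudogenes, the largest rises were Gng10, Sec61g, Nme2, Rpl36, Rpl23a, Cpne1, Rps7, Pam16, Rpl24 and Rpl31, with log2 changes of 4.26 to 4.88. Gng10, Cpne1 and Pam16 rested on only 16, 21 and 21 reads over the 4 libraries at 12000 fibers. Sec61g, a subunit of the channel that passes proteins into the endoplasmic reticulum, was at 0.897, 0.666, 1.25 and 1.21 CPM with 12000 fibers and 23.5, 31.04, 25.02 and 29.1 CPM with 30000 fibers. The groups were 26.9-fold apart.

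Under the same conditions the largest falls were Mir7005, B3gnt2, Rnasek, Cdkn2a, Papln, Bnipl, Syt2, CAAA01147332.1, Rps27 and Fam173a. At 30000 fibers 8 of the 10 rested on 7 reads or fewer over 4 libraries, so no fold is given for them. Papln, with 1 such read, lost its call without 12000 mouse 1 or 4 or 30000 mouse 1, 2 or 3. The call was also lost with libraries thinned to 1 depth and with length and GC offsets, with or without mouse as a replicate block. Fam173a had 453 reads at 12000 and 24 at 30000 fibers (-2.72 ± 0.23). Cdkn2a, which encodes the inhibitors p16 and p19, had 325 reads in controls, 140 at 12000 fibers and 7 at 30000 fibers. Lama1, the laminin chain of embryonic basement membrane and of Matrigel itself, had 2586, 176 and 12 reads in the same order, and the matrix protein Fbln1 1228, 114 and 7 reads. These reads are not scaled to depth, and the libraries at 30000 fibers were shallower. Most of the reads lost for Lama1 and Fbln1 lay between controls and 12000 fibers, and the reads of Cdkn2a fell at both steps.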

How the data were processed

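RNA sequencing libraries of the epithelial fraction were compared, 4 at 30000 fibers with 4 at 12000 fibers, with 4 controls in the same fit. Libraries were made from 300 ng of RNA with stochastic barcodes, per the labels' protocols. Per the submitters' processing notes, bcl2fastq, FastQC, cutadapt 1.12, HISAT2 2.1.0 and the build mm10 were used. The counting program, annotation release, strand setting and barcode handling were not stated in the sources used. The authors deposited raw counts per Ensembl transcript, not normalized. Isoforms share exons, so each of 14557 gene symbols was read through the single transcript that had its highest mean over the 12 epithelial libraries. The lowest transcript total over these libraries was 60, so genes below that were not analysed here. Of 71081 transcripts, 70518 were found in GENCODE M21 (GRCm38), which gave coordinates and lengths. The 12 fibroblast columns were not used.

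Groups and mouse numbers came from the sample titles. Members, gene lists and tests were chosen with earlier results of these data known. Genes were filtered with filterByExpr and scaled by TMM, and edgeR 4.0.16 (R 4.3.3) gave quasi-likelihood tests with 9 residual degrees of freedom and Benjamini-Hochberg adjustment over 13759 genes. Standard errors came from the F statistic. CPM use TMM-scaled totals, and the summed chosen transcripts held 2799765 to 10583357 counts, so low genes are less precise at 30000 fibers. Tests were also run on simulated counts in which most genes were unchanged. Here 55.4% of genes were called, so that check does not cover these data. Alternatives covered scaling, filters, DESeq2 1.42.0, summed or longest transcripts, thinning, length and GC offsets (lowess span 0.3), the mouse as a block and leaving out each library.

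Same-numbered samples come from the same mouse, per the labels. Their deviations from the group means correlated at 0.081, 0.061, 0.156 and 0.150 for mouse 1 to 4 (Pearson r over 12978 genes). Genes were named by rule: the 10 largest rises and falls among called genes that averaged at least 1 on the log2 CPM scale and moved alike in all 4 pairs, a further 10 of each that were called with offsets too, from each list the 3 called members of smallest p at most, and a fixed set. Another 61 genes were chosen for the text after their values were seen. Some genes that the rule names are not reported here.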

Additional observations from a re-analysis of the deposited data

Results flagged for a closer look

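The fiber groups of each named gene and library measure gave 540 groups of 4 values. In 34 of them the gap of 1 library to its nearest neighbour was a large share of the group's range. It passed Dixon's critical value for 4 values. Chance alone gives about 1 in 20, and 34 of 540 is little above that. At 30000 fibers Galnt6, Papln, Olfr613 and Fbln1 held only 1, 1, 6 and 7 reads over 4 libraries, so their gaps rest on very few reads. Mouse 1 at 30000 fibers stood apart on the high side for Psma3 (176 CPM, the others 153 to 154). Mouse 2 at 30000 fibers stood apart on the high side for Fbln1 (1.41 CPM, the others 0.294 to 0.392), Canx (484 CPM, the others 406 to 416) and Ccl7 (60.7 CPM, the others 41.4 to 42.3). Also high in this library were Mdm2 (867 CPM, the others 669 to 679), Grem1 (1461 CPM, the others 1207 to 1240) and Ccng1 (791 CPM, the others 669 to 681). Also high for this library was Cxcl12 (147 CPM, the others 109 to 112). Mouse 2 at 30000 fibers stood apart on the low side for Pam16 (10.2 CPM, the others 13.7 to 14.4), Abca1 (127 CPM, the others 179 to 188) and Mmp15 (142 CPM, the others 181 to 188). Mouse 3 at 30000 fibers stood apart on the high side for Galnt6 (0.294 CPM, the others at 0) and Itgb1 (820.1 CPM, the others 724 to 739). Mouse 3 at 30000 fibers stood apart on the low side for Olfr613 (0 CPM, the others 0.668 to 0.784), mt-Nd5 (27601 CPM, the others 30663 to 31166) and Id3 (59.8 CPM, the others 65.03 to 65.97). Also low for this library was Ager (92.7 CPM, the others 119 to 124). Mouse 4 at 30000 fibers stood apart on the high side for Papln (0.334 CPM, the others at 0). Mouse 4 at 30000 fibers stood apart on the low side for B2m (1666 CPM, the others 1873 to 1907), Cdkn1a (562 CPM, the others 611 to 619) and Actb (2154 CPM, the others 2446 to 2496). Mouse 1 at 12000 fibers stood apart on the high side for Rpl30 (56.5 CPM, the others 49.1 to 49.7) and Isg15 (9.15 CPM, the others 5.16 to 5.49). Mouse 2 at 12000 fibers stood apart on the high side for Col4a3 (649.9 CPM, the others 519.6 to 536) and Erbb2 (84.5 CPM, the others 73.95 to 75.5). Mouse 2 at 12000 fibers stood apart on the low side for Hspe1 (19.7 CPM, the others 24.4 to 25.2) and Cxcl12 (42.6 CPM, the others 56.5 to 57.7). Mouse 3 at 12000 fibers stood apart on the high side for Hk2 (318 CPM, the others 287 to 289) and Smad6 (10.6 CPM, the others 9.50 to 9.65). Mouse 3 at 12000 fibers stood apart on the low side for Ccna2 (22.03 CPM, the others 25.3 to 25.98). Mouse 4 at 12000 fibers stood apart on the high side for Mrpl33 (30.1 CPM, the others 27.3 to 27.6) and Avil (7.90 CPM, the others 3.60 to 4.32). Mouse 1 at 12000 fibers was sequenced deepest of its group, with 31119155 counts against 20103389 to 21000316. Mouse 3 at 30000 fibers had the lowest mitochondrial share of its group, 14.3% against 15.98% to 16.3%.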

How the results depend on the processing

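Of 13759 genes 7621 were called, and settings with the same null of no change called 6575 to 7817, lowest with libraries thinned to 1 depth and highest with the 8 fiber libraries alone. Upper quartile scaling made the lower side the larger (3735 higher, 3963 lower). Against a minimum change of 1.5-fold (glmTreat) 2202 were called, 1540 higher and 662 lower, since that null asks for larger changes. With mouse as a replicate block 7769 were called (3946 higher, 3823 lower); among the named genes the block ended the call of Krt14 and no other. Leaving out each library gave 7067 to 7267 calls (3608 to 3810 higher, 3433 to 3548 lower). It gave differences of 9.31 to 10.00 percentage points in mitochondrial share, 3.39 to 3.55 in ribosomal protein share and 0.49 to 0.54 in 3′ shift. Over all listed transcripts these shares differed by 4.29 and 4.07 points. Of 5517 alternative values of named genes, 5405 kept direction and call, 82 lost the call, 11 gained it and 19 reversed. With length and GC offsets the reversals were Gsta4 (-0.18, with the block -0.17), Mt2 (-0.0502, with the block -0.0493), Apoc1 (-1.02, with the block -1.05) and Pold1 (0.13, with the block 0.13). With the longest transcript they were Twist2 (-0.66), Fdps (-0.32), Psph (-0.48), Psmb3 (-0.54), Cd63 (-0.33), Atp6v0e (-1.33), Hspe1 (-1.94), Dclk1 (-0.13), Vim (-0.0496) and Trp53 (-0.38), and with transcripts summed Cyp1b1 (0.11). The cause was not tested. List medians kept their sign under RLE scaling and under scaling without mitochondrial and ribosomal protein genes. Upper quartile scaling turned 4 that stood close to 0 (NF-kappaB feedback, p53 targets, FGF feedback and immune cells).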

Other observations

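Antioxidant genes were mostly higher at 30000 fibers. Of 24 antioxidant enzyme genes 17 rose and 1 fell, with a median of 0.70. With length and GC offsets 14 rose and 3 fell (median 0.41), and with mouse as a replicate block 2 fell. Peroxiredoxin 2 (Prdx2), which breaks down hydrogen peroxide, was at 115, 100.5, 103 and 98.7 CPM with 12000 fibers and 218, 252, 226 and 230.2 CPM with 30000 fibers. The groups did not overlap (1.15 ± 0.07, adjusted p = 6.97e-11, 0.89 with offsets). Metallothionein 1 (Mt1), a metal-binding protein, rose by 1.78 ± 0.08, which was 1.18 with offsets. Its relative Mt2 rose by 1.47 ± 0.09, which turned to -0.05. Of 24 targets of the oxidative stress factor NRF2 11 rose and 7 fell. Nqo1, one of its best known targets, changed by 0.54 ± 0.12 and lost its call with offsets (0.17). Of 24 heat shock and chaperonin genes 13 rose and 4 fell, or 9 fell with transcripts summed. The constitutive chaperone Hspa8 rose by 1.63 ± 0.07, from 429 ± 21.1 to 1331 ± 41.7 CPM (SD, n = 4). The ferritin heavy chain Fth1, which stores iron, rose by 1.14 ± 0.08.

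Of 23 genes of the integrated stress response and serine synthesis 10 fell and 2 rose. Only 6 fell without 12000 mouse 4, without 30000 mouse 3 or with length and GC offsets, and 4 rose with mouse as a replicate block or with transcripts summed. The mTOR inhibitor Ddit4 fell, by -1.21 ± 0.08, while the serine synthesis enzyme Phgdh rose by 1.00 ± 0.12. Of 29 hypoxia and glycolysis genes 13 fell and 5 rose. Hexokinase 2 (Hk2), which starts glycolysis, changed by -0.92 ± 0.06. The glycolytic enzyme Gapdh, often used as a reference gene, was at 230.1 ± 12.8 CPM with 12000 fibers and 651 ± 37.7 CPM with 30000 fibers (SD, n = 4, adjusted p = 1.69e-13), and Pgk1 rose by 1.89 ± 0.10. Actin beta (Actb), another common reference, changed by -0.35 ± 0.07 and the nuclear RNA Malat1 by 0.38 ± 0.12. Of 16 YAP and TAZ targets, which respond to mechanical cues, 9 fell and 3 rose (median -0.23), or 7 and 5 with offsets (-0.05). Ccn2, one of them, was at 1082, 1273, 1449 and 1358 CPM in controls, 2001, 2099, 2225 and 2039 CPM at 12000 fibers and 1022, 897, 1250 and 1185 CPM at 30000 fibers. All 4 libraries at 12000 fibers lay above the other 8, and those at 30000 fibers overlapped the controls (-0.94 ± 0.10).

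The remaining lists are given by their counts, to be read beside the 28.3% of all genes that rose and the 27.1% that fell. Of 30 lysosomal genes 18 rose and 4 fell, and of 31 translation factors 18 rose and 6 fell. Of 25 genes for fatty acids and lipid droplets 3 rose and 7 fell, but 5 rose with mouse as a replicate block and 11 fell when the 8 fiber libraries were fitted alone. Of 18 immediate early genes 5 rose and 4 fell, or 7 with the block. Among 14 WNT targets 4 rose and 2 fell, or 1 fell without 12000 mouse 1, 30000 mouse 2 or 30000 mouse 4. Among 9 aryl hydrocarbon receptor targets 3 rose and 2 fell, or 1 fell without 30000 mouse 2. EGF ligands and receptors showed 3 rises and 3 falls among 10, FGF feedback genes 3 and 3 among 12, and NF-kappaB feedback genes 4 and 6 among 17. Unfolded protein response genes showed 5 rises and 6 falls among 22, and matrix proteases and their inhibitors 6 and 9 among 28. Transitional alveolar genes split into 7 rises and 8 falls among 21 (4 and 12 with offsets), goblet cell genes into 2 and 2 among 13, and noncoding RNA genes into 11 and 2 among 19. Of 7 MHC class II genes 1 fell, Ciita, the class II transactivator (-1.18 ± 0.27).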
